A study of Rattus norvegicus with 32 samples.

Results

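The gastrocnemius of control rats kept for 2 weeks at 4 °C was compared with that of control rats at room temperature, over all genes measured. The comparison used 14 of the 32 libraries of the series, 7 from the cold group and 7 from the room-temperature group, taken by their labels and not by any measured value. All 14 came from male rats 20 weeks old with an intact UCP1 gene, called control in one label and wild-type in another, and chow-fed per the series title. The other 18 libraries came from UCP1 knockout rats of the same sex, age and temperatures, and entered the model only to estimate the spread and to show the knockout response beside that of the control rats. The labels give 7 control and 9 knockout rats sampled before and after the cold, and do not say whether the room-temperature and cold libraries of a group came from the same animals. The p-values therefore measure the spread between these samples.

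The gastrocnemius, in the calf, consists chiefly of fast fibres, which draw on glycogen and glycolysis, with a minority of slow, mitochondria-rich fibres. A rat in the cold first makes heat by shivering, which is repeated low-force contraction, and over days shifts part of the load to brown fat, whose mitochondria leak protons through UCP1. Muscle can also make heat without contraction, for which the calcium pump SERCA and its small regulator sarcolipin are the best known machinery. Repeated contraction changes which fuels a muscle burns, its contact with the nerve, and the matrix and vessels around its fibres.

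The libraries read the 3′ end of transcripts, and a value counts reads of a gene after PCR, with no molecular barcode described in the labels. Values are compared between libraries gene by gene. Levels are in CPM, the counts scaled to the size and composition of each library, and changes are log2 ratios of cold over room temperature with their standard error (SE), from edgeR's quasi-likelihood test with Benjamini-Hochberg adjusted p-values over 11594 genes. A level is given as the median of 7 libraries, with the lowest and the highest in parentheses. A gene is called when its adjusted p is under 0.05. Library totals ran from 11393868 to 18075826 counts at room temperature and from 8388550 to 20445924 in the cold (two-sided exact permutation p = 0.575, adjusted p = 0.575 over 4 library measures). The 10 most abundant genes held 27.7 to 31.6% of counts at room temperature and 23.5 to 25.2% in the cold, without overlap (exact permutation p = 0.000583, adjusted p = 0.000777). Markers of the muscle fibre summed to 113470 to 128030 CPM at room temperature and to 100770 to 123010 CPM in the cold. Room-temperature replicates 2 and 3 lay at -39.8 and -27.9 on the first principal component of the 14 libraries, followed by replicate 6 at -26.4, and the cold libraries lay between 12.8 and 24.4. The fit was repeated without replicates 2 and 3, and its counts of calls are given with those of the lists below.

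After 2 weeks of cold, 1439 genes rose and 960 fell, which is 12.4% and 8.28% of the genes tested. A change of at least 2-fold was reached by 456 of the genes that rose and by 78 of those that fell. Without room-temperature replicates 2 and 3, 779 genes rose and 545 fell (6.52% and 4.56% of 11953 tested). These shares are the background for the counts of each list below. Of the 2399 genes called with all libraries, 1294 were called in the same direction in both fits, 758 higher and 536 lower (6.54% and 4.62% of the genes tested), and 0 changed sign. All cold libraries lay above all room-temperature libraries for 396 genes (3.42%) and below them for 271 (2.34%).

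Several genes of large change or small p were called in both fits and had groups that did not overlap. Chrnd (ENSRNOG00000019527), which codes for the acetylcholine receptor's delta subunit, had the smallest p of all genes; it stood at 23.8 CPM (20.7 to 33.2) at room temperature and at 67.1 CPM (59.1 to 91.6) in the cold (log2 1.56 ± 0.14, adjusted p = 4.87e-09). Sln (ENSRNOG00000009047), sarcolipin, stood at 2.81 CPM (1.67 to 4.43) and 21.7 CPM (10.1 to 73.1), the largest change among the genes named here (log2 3.29 ± 0.43, adjusted p = 8.64e-06). Neither gene's groups overlapped, and the change without room-temperature replicates 2 and 3 was 1.47 for Chrnd and 3.18 for Sln. Gpnmb (ENSRNOG00000008816), a glycoprotein of lysosomes and macrophages, rose from 6.68 CPM (4.68 to 13.1) to 24.4 CPM (18.5 to 38.1) (log2 1.70 ± 0.21, adjusted p = 1.78e-06). Tmem252 (ENSRNOG00000025476), a membrane protein, rose from 4.84 CPM (3.37 to 6.05) to 13.3 CPM (9.81 to 15.3) (log2 1.43 ± 0.16, adjusted p = 5.24e-07). Gipc2, a scaffold protein, rose by 1.26 ± 0.17 (adjusted p = 7.36e-06) and Vim, the intermediate filament vimentin of mesenchymal and regenerating cells, by 0.90 ± 0.12 (adjusted p = 6.65e-06). In all of these the highest room-temperature library lay under the lowest cold library.

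Among the genes that fell, Gpd1 (ENSRNOG00000056457), which makes glycerol 3-phosphate from a glycolytic intermediate, went from 1562 CPM (1258 to 1888) to 869 CPM (729 to 983) (log2 -0.84 ± 0.10, adjusted p = 1.64e-06). Ppp1r1a (ENSRNOG00000036827), an inhibitor of protein phosphatase 1, went from 685 CPM (574 to 796) to 379 CPM (328 to 459) (log2 -0.85 ± 0.10, adjusted p = 1.59e-06). Xkr8 (ENSRNOG00000024312), a phospholipid scramblase of the cell membrane, went from 29 CPM (25.6 to 39.3) to 13.3 CPM (12 to 16.9) (log2 -1.13 ± 0.14, adjusted p = 1.78e-06). The groups of these 3 genes did not overlap. The plot of 12 genes by library shows these levels beside those of genes described below.

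**Figure D1:**
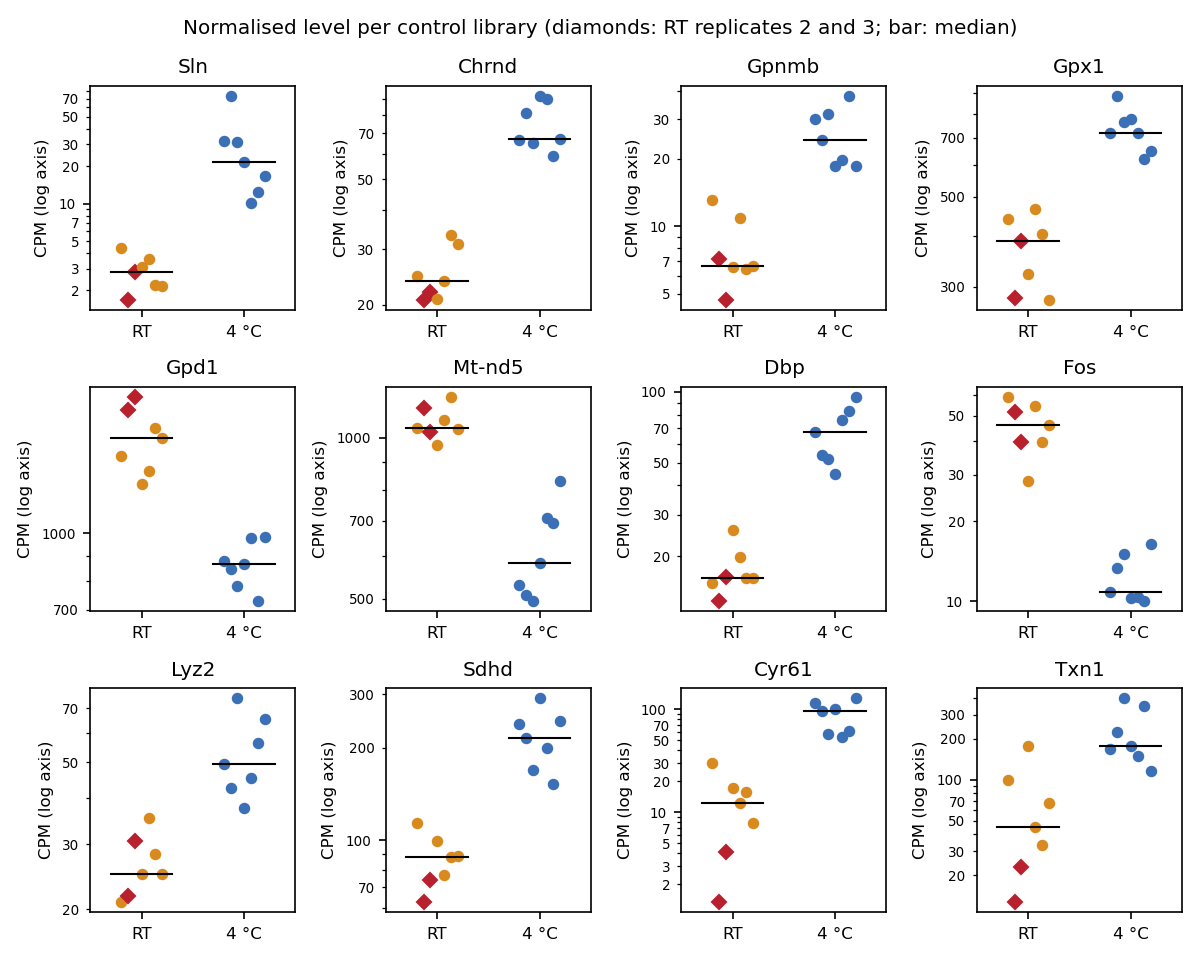
CPM (log axis) of 12 genes in each of the 7 room-temperature (RT) and 7 cold control libraries; points are libraries, red diamonds RT replicates 2 and 3, bars medians. The groups are apart in 11 panels, while for Txn1 they overlap, and RT replicates 2 and 3 are the 2 lowest RT libraries for Sdhd, Cyr61 and Txn1.

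At the nerve contact, 3 of 12 tested endplate genes rose and 1 fell (1 and 1 without room-temperature replicates 2 and 3). Over all genes tested 12.4% rose and 8.28% fell, or 6.52% and 4.56% without those libraries. Beside Chrnd, Lrp4, the muscle receptor for the nerve signal agrin, went from 6.06 CPM (3.17 to 10.1) to 10.8 CPM (9.47 to 15.1), with overlap (log2 0.85 ± 0.22, adjusted p = 0.00529), and Ache, the enzyme that clears acetylcholine, fell from 12.9 CPM (10.3 to 16.1) to 6.67 CPM (4.66 to 9.92) without overlap (log2 -0.85 ± 0.14, adjusted p = 0.000117). The call of Lrp4 ended without room-temperature replicates 2 and 3 (log2 0.65, adjusted p = 0.055), while Ache kept its call (log2 -0.78, adjusted p = 0.00156). Of 15 ion pumps and channels 2 rose and 3 fell (2 and 2 without those libraries). Kcnj11, the pore of the ATP-sensitive potassium channel, fell from 225 CPM (175 to 272) to 153 CPM (116 to 164) (log2 -0.64 ± 0.11, adjusted p = 0.000136). Scn4a, the sodium channel that carries the muscle action potential, fell from 6.09 CPM (3.83 to 11.2) to 3.32 CPM (1.6 to 4.37), with overlap (log2 -1.11 ± 0.25, adjusted p = 0.0015). Atp1b1, a subunit of the sodium-potassium pump, rose by 0.59 ± 0.12 (adjusted p = 0.000466). Of 26 calcium-cycling genes, the list that holds Sln, 4 rose and 6 fell (4 and 2 without those libraries, median -0.15 with all libraries). Atp2a2, the calcium pump SERCA2 of slow fibres, rose from 538 CPM (362 to 596) to 987 CPM (636 to 1300) (log2 0.94 ± 0.17, adjusted p = 0.000291).

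Of 17 denervation and regeneration genes 5 rose and 1 fell (4 and 0 without room-temperature replicates 2 and 3), and of 16 growth arrest genes 3 rose and 1 fell (2 and 1). The shares over all genes tested were 12.4% and 8.28%, or 6.52% and 4.56% without those libraries. Gadd45a, a stress-induced growth arrest gene that denervation also induces, went from 13.9 CPM (13.3 to 17.5) to 32.9 CPM (19.9 to 53.8) (log2 1.22 ± 0.16, adjusted p = 6.65e-06). Cdkn1a, the cell-cycle inhibitor p21, went from 12.3 CPM (7.91 to 19) to 38.3 CPM (25.4 to 120.0) (log2 2.04 ± 0.36, adjusted p = 0.00025). For both genes the groups did not overlap, and the change was no smaller without room-temperature replicates 2 and 3 (1.30 and 2.23). Ankrd1, a stretch-responsive titin partner, rose by 1.21 ± 0.36 with overlap (adjusted p = 0.0159), and its call ended without cold replicate 1 (adjusted p = 0.0513). Myogenic genes of this list moved in unlike directions. Runx1, a transcription factor of denervated fibres, rose (0.79 ± 0.25, adjusted p = 0.0214), while Myod1, which drives the myoblast program, fell (-0.86, adjusted p = 0.0235), or -0.64 without replicates 2 and 3 (adjusted p = 0.16).

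Fibre-type genes are given here only as a base for the other programs. Of 16 tested slow-fibre genes 11 rose and 0 fell, with a median log2 change of 0.88 against 0.03 over all genes tested, and the same 11 were called without room-temperature replicates 2 and 3, where the median was 0.74. Of 13 fast-fibre genes 7 fell and 0 rose, or 5 and 0 without those libraries. On the level of the list, the mean log2 CPM of the slow-fibre genes against the 5 other room-temperature libraries, replicates 2 and 3 averaged -0.49, below the other 5 (-0.35 to 0.23), and the cold libraries lay at 0.41 to 0.98.

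Carbohydrate genes fell more often than they rose. In the glycolysis list 9 of 23 genes fell and 2 rose (median -0.28), and in the glycogen list 6 of 17 fell and 1 rose (median -0.23). Without room-temperature replicates 2 and 3 the counts were 6 lower and 1 higher, and 3 lower and 1 higher. Pgm1, which interconverts glucose phosphates on the way to and from glycogen, fell from 1277 CPM (1149 to 1578) to 931 CPM (807 to 1079) without overlap (log2 -0.49 ± 0.08, adjusted p = 0.00015). Gbe1, the branching enzyme of glycogen synthesis, went the other way, from 116 CPM (79.8 to 136) to 188 CPM (151 to 277), also without overlap (log2 0.84 ± 0.14, adjusted p = 5.85e-05). Of 19 genes of glucose uptake and insulin action 3 rose and 2 fell, and without those libraries 0 rose and 1 fell. Tbc1d4, the Rab regulator through which insulin moves the glucose transporter to the membrane, fell from 18.6 CPM (12.7 to 20.4) to 9.3 CPM (7.82 to 13), with overlap (log2 -0.87 ± 0.16, adjusted p = 0.000312). Me1, the malic enzyme that makes NADPH for lipid synthesis, fell (log2 -0.56 ± 0.12, adjusted p = 0.00087).

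Fat-handling genes rose in 8 of 23 cases for oxidation (0 fell, median 0.17) and in 8 of 22 for uptake and storage (1 fell, median 0.29), or in 6 and 7 without room-temperature replicates 2 and 3. Lpl, lipoprotein lipase, which supplies muscle with fatty acids from the blood, rose from 272 CPM (234 to 309.8) to 433 CPM (372 to 562) without overlap (log2 0.75 ± 0.15, adjusted p = 0.000433). Acadm, the medium-chain acyl-CoA dehydrogenase, rose by 0.58 ± 0.13 (adjusted p = 0.00129), and Eci2, an isomerase for unsaturated fatty acids, by 0.90 ± 0.17 (adjusted p = 0.000345). Plin5, the droplet coat protein of oxidative muscle, rose from 16.1 to 26.3 CPM in the group means (log2 0.71 ± 0.15, adjusted p = 0.00113). Esrrg, a nuclear receptor of oxidative genes, went from 18.9 CPM (15.4 to 23.5) to 29.5 CPM (27 to 37.5) without overlap (log2 0.69 ± 0.13, adjusted p = 0.000275). The catalytic subunits of AMP-activated kinase moved apart. Prkaa1 rose by 0.46 ± 0.11 (adjusted p = 0.00396) and Prkaa2, the main subunit of muscle, fell by 0.41 ± 0.09 (adjusted p = 0.00109). The regulators Ppargc1a (-0.05 ± 0.23, adjusted p = 0.898) and Ucp3 (-0.41 ± 0.30, adjusted p = 0.363) were not called. Pdk4 fell (log2 -0.85 ± 0.30, adjusted p = 0.0405), and its call ended without replicates 2 and 3 (log2 -0.89, adjusted p = 0.08). Of 17 PPAR targets 5 rose and 2 fell (3 and 0 without those libraries, median 0.08 with all libraries).

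Mitochondrial genes did not move as a block. Transcripts of the mitochondrial genome fell in 9 of 12 cases and rose in 0 (median -0.60), with the same counts without room-temperature replicates 2 and 3 (median -0.63). Mt-nd1, a complex I subunit, fell from 12278 CPM (10756 to 14665) to 8071 CPM (6379 to 10053) without overlap (log2 -0.62 ± 0.11, adjusted p = 0.000129). These transcripts held 10.3 to 11.9% of counts at room temperature and 6.99 to 10.2% in the cold. The proteins of the mitochondrial ribosome, which translates them, fell in 14 of 69 cases and rose in 1 (median -0.10), or in 10 and 1 without replicates 2 and 3. Mrpl42 fell from 70.2 CPM (60.9 to 72.7) to 44.5 CPM (32.9 to 50.2) without overlap (log2 -0.67 ± 0.09, adjusted p = 8.88e-06) and Mrps11 from 93 CPM (79.8 to 106) to 63.5 CPM (58.1 to 72.3) (log2 -0.53 ± 0.10, adjusted p = 0.000343). Nuclear genes of complex I rose in 3 and fell in 4 of 35 cases (1 and 3 without those libraries), and those of complexes II to V rose in 5 and fell in 3 of 37 (2 and 3). The risers were a few genes of large change. Ndufb6 of complex I went from 11.5 CPM (3.17 to 16.6) to 41.9 CPM (31.1 to 55.4) (log2 1.97 ± 0.39, adjusted p = 0.000714) and Cox7c of complex IV from 589 CPM (276 to 892) to 1476 CPM (1211 to 1722) (log2 1.36 ± 0.32, adjusted p = 0.00326). The fallers changed less, such as Ndufs7 (log2 -0.49 ± 0.09, adjusted p = 0.000249) and Atp5f1e, a subunit of the ATP synthase (log2 -0.48 ± 0.09, adjusted p = 0.000401). In the citric acid cycle list 10 of 28 genes rose and 3 fell (5 and 1 without replicates 2 and 3), led by Mpc2, a subunit of the pyruvate carrier, from 15.8 CPM (7.35 to 24.9) to 47 CPM (31.4 to 54.4) (log2 1.56 ± 0.30, adjusted p = 0.000517), and by Sdhd, a membrane anchor of succinate dehydrogenase, from 88 CPM (62.6 to 114) to 216 CPM (153 to 291) (log2 1.33 ± 0.26, adjusted p = 0.000509). For Ndufb6, Cox7c, Mpc2 and Sdhd replicates 2 and 3 were the 2 lowest room-temperature libraries, and the change without them was 1.66, 1.13, 1.34 and 1.21. Ucp2, a carrier related to UCP1, rose from 4.92 CPM (3.14 to 6.33) to 10.3 CPM (8.66 to 21.3) without overlap (log2 1.44 ± 0.26, adjusted p = 0.000226), or by 1.30 without those libraries.

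**Figure D2:**
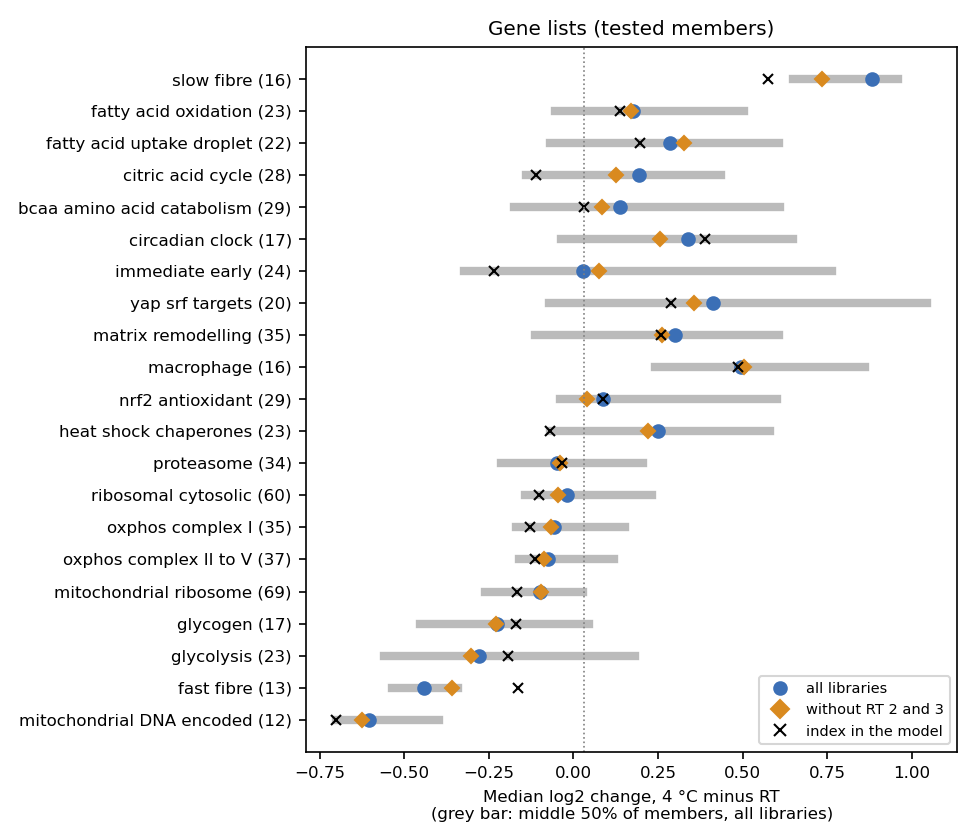
Median log2 change (cold minus RT) of 21 gene lists, with the number of tested members in parentheses; circles use all libraries, diamonds leave out RT replicates 2 and 3, crosses add the low-library index to the model (index genes among the members included), grey bars span the middle 50% of members and the dotted line is the median of all genes. Slow-fibre genes are highest (0.88, 0.74 and 0.57) and mitochondrial DNA-encoded genes lowest (-0.60, -0.63 and -0.70).

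Of 29 genes of ketone use and amino acid breakdown 7 rose and 3 fell (6 and 2 without room-temperature replicates 2 and 3). Klf15, a transcription factor that drives amino acid breakdown, went from 10.6 CPM (5.51 to 14.1) to 26.8 CPM (15.3 to 33.2) without overlap (log2 1.30 ± 0.22, adjusted p = 0.000173). Bdh1, which interconverts the main ketone bodies, went from 5.78 CPM (2.43 to 10.8) to 11.3 CPM (8.98 to 24.1), with overlap (log2 1.32 ± 0.24, adjusted p = 0.00025). Bckdk, the kinase that switches off branched-chain amino acid oxidation, fell from 309 to 414 CPM over the room-temperature libraries to 214 to 305 CPM over the cold ones, without overlap (log2 -0.53 ± 0.09, adjusted p = 0.00015). Among the enzymes after that step Hibadh rose by 1.25 ± 0.25 (adjusted p = 0.000736) and Aldh6a1 by 1.23 ± 0.28 (adjusted p = 0.00233), while Pccb fell by 0.41 ± 0.11 (adjusted p = 0.00625). Of the energy-phosphate genes, Ckb, the brain-type creatine kinase, rose by 0.57 ± 0.12 (adjusted p = 0.000714), and Adk, the kinase that recycles adenosine, fell by 0.61 ± 0.10 (adjusted p = 5.17e-05).

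Some genes of defence against oxidants and unfolded protein rose. Of 29 genes of the NRF2-type antioxidant list 7 rose and 1 fell (7 and 0 without room-temperature replicates 2 and 3). Gpx1, a glutathione peroxidase, went from 389 CPM (278 to 466) to 719 CPM (619.9 to 885) without overlap (log2 0.99 ± 0.12, adjusted p = 2.26e-06). Nqo1, a quinone reductase that NRF2 induces, rose by 0.58 ± 0.12 (adjusted p = 0.000531), and Nfe2l2, which codes for NRF2 itself, by 0.60 ± 0.12 (adjusted p = 0.000414). Of 23 heat shock genes 8 rose and 1 fell (5 and 0). Hspb7, a small chaperone of striated muscle, went from 1006 CPM (863 to 2009) to 2561 CPM (2022 to 3076) (log2 1.07 ± 0.21, adjusted p = 0.000464), and Bag3, a co-chaperone that helps remove damaged sarcomere protein, from 246 CPM (218 to 274) to 336 CPM (275 to 403) (log2 0.47 ± 0.10, adjusted p = 0.000745); neither gene's groups overlapped. Rbm3 was the only called gene, in either fit, among 10 tested cold-inducible RNA-binding and related genes, at 54.9 CPM (45.3 to 66) and 93 CPM (60.4 to 99.8) (log2 0.68 ± 0.13, adjusted p = 0.000433). Among the lists near the background of 12.4% higher and 8.28% lower were mitochondrial import and chaperones (3 higher and 3 lower of 23, or 1 and 2 without replicates 2 and 3), angiogenesis (3 and 1 of 21, or 1 and 1), the unfolded protein response (2 and 1 of 22, or 1 and 0), cholesterol synthesis (1 and 2 of 16, or 1 and 0), cytosolic ribosomal proteins (7 and 2 of 60, or 2 and 2) and fibrillar and other collagens (2 and 1 of 13, or 2 and 1). The nuclear genes of complex I, those of complexes II to V and the genes of glucose uptake above were near it too. The proteasome had 6 higher and 6 lower of 34, and 1 and 3 without replicates 2 and 3.

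Among 17 clock genes 7 rose and 2 fell (5 and 1 without room-temperature replicates 2 and 3). The clock activators CLOCK and BMAL1 bind the E-box CACGTG, and the activated genes include repressors that close the loop and output factors that pass the rhythm on. These promoters are shown because their genes rose with the list and hold this motif. They are taken from RefSeq (build GRCr8), run from 250 bases before to 50 bases after the gene start, and capitals mark CACGTG, which reads the same on both strands. Ciart is at chr2:186112197-186112496, minus strand, and Tef at chr7:115206577-115206876, plus strand.
Ciart promoter: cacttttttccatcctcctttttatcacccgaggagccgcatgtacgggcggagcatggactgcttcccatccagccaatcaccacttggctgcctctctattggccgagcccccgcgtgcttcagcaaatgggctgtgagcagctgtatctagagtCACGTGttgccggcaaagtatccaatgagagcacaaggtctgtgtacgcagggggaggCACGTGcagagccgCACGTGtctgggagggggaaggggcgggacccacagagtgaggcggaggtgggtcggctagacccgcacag
Tef promoter: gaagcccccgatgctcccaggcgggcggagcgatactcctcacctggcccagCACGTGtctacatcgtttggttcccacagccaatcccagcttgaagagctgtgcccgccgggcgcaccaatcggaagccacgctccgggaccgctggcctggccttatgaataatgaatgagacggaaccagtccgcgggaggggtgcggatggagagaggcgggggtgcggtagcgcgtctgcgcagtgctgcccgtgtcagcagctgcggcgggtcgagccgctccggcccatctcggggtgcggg
The first site of Ciart starts 93 bases before the gene start, the second 35 and the third 21, and the site of Tef starts 198 bases before it. The motif was present in 6.42% of the 33469 promoters of the table and in a promoter of 5 of the 16 tested clock genes that the table holds. Beside Ciart and Tef these were Nr1d1, Bhlhe40 and Bhlhe41. The first share is per promoter and the second per gene, and some genes have several promoters, so the shares are not alike. Of the other genes described next, Dbp, an output factor of the clock, and Per2, Nr1d2 and Nfil3 have no such match in their windows.

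Ciart, a repressor of the clock activators, was near the limit of detection, at 0 to 0.374 CPM (median 0.275) at room temperature and at 1.75 CPM (0.916 to 3.14) in the cold, without overlap (log2 3.07 ± 0.66, adjusted p = 0.00102). Dbp went from 16.2 CPM (12.9 to 25.9) to 67.2 CPM (44.9 to 94.9), without overlap (log2 1.95 ± 0.30, adjusted p = 5.85e-05). Nfil3, which competes with Dbp for its sites, fell from 15.1 CPM (10.7 to 27.2) to 6.32 CPM (4.06 to 12), with overlap (log2 -1.22 ± 0.28, adjusted p = 0.00205). Per2, a repressor of the loop, rose by 0.95 ± 0.22 (adjusted p = 0.00214), Tef, a relative of Dbp, by 0.39 ± 0.11 (adjusted p = 0.0108) and Nr1d2, a repressor of Bmal1 transcription, by 0.45 ± 0.11 (adjusted p = 0.00349). Without room-temperature replicates 2 and 3 the calls of Clock, Cry1 and Nr1d1 ended, while Ciart (3.42), Dbp (1.85), Per2 (0.95), Tef (0.44) and Nr1d2 (0.40) kept theirs. The labels give no hour of dissection.

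Immediate-early genes, which stimuli such as contraction switch on within minutes, were called in 11 of 24 cases, 8 higher and 3 lower (3 and 2 without room-temperature replicates 2 and 3). Fos went from 46.2 CPM (28.4 to 58.6) to 10.8 CPM (10 to 16.4) without overlap (log2 -1.88 ± 0.34, adjusted p = 0.00031), and its change without those libraries was -1.88. Zfp36, which promotes the decay of short-lived mRNA, rose from 11.2 CPM (8.05 to 14) to 20.3 CPM (18.2 to 29.9) (log2 0.95 ± 0.19, adjusted p = 0.000494). Nr4a3, a nuclear receptor induced by exercise, showed what replicates 2 and 3 can do to a single gene. It was at 46.4 and 30.3 CPM in these libraries, the 7 room-temperature libraries ran from 3.03 to 46.4 CPM, and the cold ones had a median of 3.21 CPM and a highest value of 14.8 CPM. Its change of -1.96 ± 0.69 (adjusted p = 0.0417) became -0.86 without them (adjusted p = 0.46). Slc25a25, a mitochondrial ATP-phosphate carrier, kept its call (log2 -1.32, adjusted p = 0.0174) with a smaller change than with all libraries (log2 -1.80 ± 0.37, adjusted p = 0.000943).

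Of 35 matrix remodelling genes 10 rose and 1 fell, and 10 rose and 0 fell without room-temperature replicates 2 and 3. Bgn, the proteoglycan biglycan, went from 63.7 CPM (48.4 to 80.3) to 116 CPM (88.8 to 143) without overlap (log2 0.87 ± 0.15, adjusted p = 0.000197). Plat, the tissue plasminogen activator, went from 6.66 CPM (3.51 to 10.5) to 15.2 CPM (12.1 to 24.5) without overlap (log2 1.34 ± 0.21, adjusted p = 5.63e-05). Lox, which crosslinks collagen, rose by 1.10 ± 0.28 on the log2 scale (adjusted p = 0.00563), and Timp1, an inhibitor of matrix proteases, by 0.92 ± 0.22 (adjusted p = 0.00291). Of 11 tendon markers 2 rose and 1 fell, with the same counts without those libraries. Thbs4, a thrombospondin of tendon and muscle attachment, rose from 47.1 CPM (34.8 to 65.6) to 142 CPM (115 to 183) without overlap (log2 1.58 ± 0.29, adjusted p = 0.000394), and Cilp, a cartilage and tendon matrix protein, rose as well (log2 1.02 ± 0.19, adjusted p = 0.000294). Scx, the transcription factor that defines tendon cells, fell (log2 -0.54 ± 0.16, adjusted p = 0.0162). The summed tendon markers ran from 215 to 438 CPM at room temperature and from 379.59 to 619 CPM in the cold.

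Of 20 targets of YAP and SRF, factors that respond to stretch and the actin skeleton, 10 rose and 2 fell (6 and 2 without room-temperature replicates 2 and 3). Cyr61, a secreted matricellular protein, went from 12.3 CPM (1.34 to 30.4) to 96.8 CPM (54 to 129) without overlap (log2 2.77 ± 0.66, adjusted p = 0.00342). F3, tissue factor, the starter of coagulation, went from 1.11 CPM (0.689 to 3.04) to 10.7 CPM (4.71 to 14) (log2 2.82 ± 0.51, adjusted p = 0.000312). Tead1, the DNA-binding partner of YAP, fell from 34.2 CPM (25.9 to 37.2) to 15.4 CPM (11.7 to 22.8) without overlap (log2 -1.01 ± 0.18, adjusted p = 0.000201).

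Of 16 macrophage markers 7 rose and 0 fell (median 0.50), or in 6 without room-temperature replicates 2 and 3 (median 0.51). Lyz2, a lysozyme of myeloid cells, went from 24.9 CPM (20.9 to 35.3) to 49.5 CPM (37.5 to 74.5) (log2 0.99 ± 0.14, adjusted p = 1.66e-05), and Cd163, a scavenger receptor of tissue macrophages, from 5.78 CPM (4.51 to 8.21) to 10.3 CPM (9.58 to 18.9) (log2 1.04 ± 0.20, adjusted p = 0.000312); the groups did not overlap for either. The summed markers ran from 128 to 223 CPM at room temperature and from 225 to 386 CPM in the cold. Spp1, osteopontin, which macrophages secrete, went from 1.65 CPM (0.546 to 5.18) to 11.7 CPM (3.89 to 19.4), with overlap (log2 2.42 ± 0.51, adjusted p = 0.00118). The myeloid alarmin S100a8 rose from 0.985 CPM (0.668 to 1.85) to 2.57 CPM (2.04 to 5.1) (log2 1.56 ± 0.34, adjusted p = 0.00127). In bulk muscle, more cells of a type and more RNA per cell cannot be told apart, here and for the markers that follow.

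Of 10 adipocyte markers 6 rose and 0 fell (median 1.21), or in 4 without room-temperature replicates 2 and 3 (median 1.09). Fabp4, the fatty acid carrier of adipocytes and vessels, went from 78.4 CPM (62.5 to 97.8) to 169 CPM (131 to 213) without overlap (log2 1.16 ± 0.15, adjusted p = 2.6e-06), and Adipoq, the fat hormone adiponectin, rose by 1.35 ± 0.34 (adjusted p = 0.00497). The summed adipocyte markers ran from 185 to 225 CPM at room temperature and from 336 to 501 CPM in the cold. Only 2 brown-adipocyte markers were tested and neither was called, and Ucp1 itself was not analysed here. Endothelial markers rose in 3 of 11 cases and fell in 0, with the same counts without those libraries, among them Flt1, a receptor for vessel growth factor (log2 0.84 ± 0.15, adjusted p = 0.000136), and Vwf, a clotting protein of endothelium (log2 0.57 ± 0.16, adjusted p = 0.00884), while the vessel ligand Apln fell (log2 -1.29 ± 0.28, adjusted p = 0.00106).

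Of 6 erythroid markers 4 rose and 1 fell (2 and 1 without room-temperature replicates 2 and 3). Hbb, a beta globin, went from 4.32 CPM (0.668 to 16.2) to 29.8 CPM (18.1 to 163) without overlap (log2 3.07 ± 0.60, adjusted p = 0.000662), the highest value being that of cold replicate 2, and Alas2, the first enzyme of heme synthesis in red cells, from 0.37 CPM (0.164 to 2.07) to 2.04 CPM (0.392 to 9.58), with overlap (log2 2.14 ± 0.56, adjusted p = 0.00629). Without cold replicate 2 the change of Hbb was 2.30 (adjusted p = 0.00271) and the call of Alas2 ended (adjusted p = 0.0649). Bpgm, which makes the phosphate compound that lowers the oxygen affinity of hemoglobin, fell from 192 CPM (143 to 228) to 107 CPM (90.4 to 152) (log2 -0.72 ± 0.13, adjusted p = 0.000181). Globin genes have near-identical copies that the counting could split. Intestinal markers were present at 216 to 847 CPM at room temperature and at 246 to 1242 CPM in the cold in sum, and 2 of 11 rose, both losing their call without replicates 2 and 3. Reg3b, a lectin of gut and injured tissue, rose from 4.54 CPM (0.167 to 12.1) to 21.1 CPM (13.3 to 51.9), a 5.64-fold difference in the fit (adjusted p = 0.00133). The part of intestinal RNA in these changes was not tested.

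Of 11 thyroid-responsive genes 5 rose and 2 fell (median 0.47), or 4 and 2 without room-temperature replicates 2 and 3. The 5 include Atp2a2 and Myh7, which are also slow-fibre genes. Thra, the thyroid hormone receptor alpha, fell from 140.1 CPM (118 to 167) to 93.4 CPM (67.9 to 105) without overlap (log2 -0.66 ± 0.11, adjusted p = 6.56e-05). Of 16 glucocorticoid-responsive genes 5 rose and 1 fell (median 0.24), or 3 and 1 without those libraries. Klf15, described above, was among those that rose. Of 19 genes of iron and oxygen handling 2 rose and 2 fell (1 and 1), near the shares of 12.4% and 8.28% over all genes tested. Tfrc, the transferrin receptor for iron uptake, fell from 174 CPM (106 to 253) to 84.9 CPM (49.9 to 128), with overlap (log2 -1.05 ± 0.19, adjusted p = 0.000284), and its change was -1.23 without room-temperature replicates 2 and 3. Of 22 growth genes of the IGF and myostatin pathways 3 rose and 2 fell (1 and 2), also near the shares over all genes tested. Igfbp5, a binding protein for insulin-like growth factors, fell from 455 CPM (336 to 534) to 258 CPM (199.9 to 393) (log2 -0.71 ± 0.19, adjusted p = 0.00666). In the atrophy and autophagy list 5 of 23 genes rose and 5 fell (4 and 2). Ctsl, the lysosomal protease cathepsin L, went from 25.9 CPM (20.4 to 46.6) to 88.4 CPM (74.4 to 121) without overlap (log2 1.54 ± 0.21, adjusted p = 1.12e-05), and Bnip3, a receptor for the removal of mitochondria, from 16 CPM (9.55 to 21) to 40.9 CPM (30.8 to 77.8) (log2 1.58 ± 0.32, adjusted p = 0.000771). Fbxo32, the ubiquitin ligase atrogin-1, fell by 0.39 ± 0.14 (adjusted p = 0.0372).

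**Figure D3:**
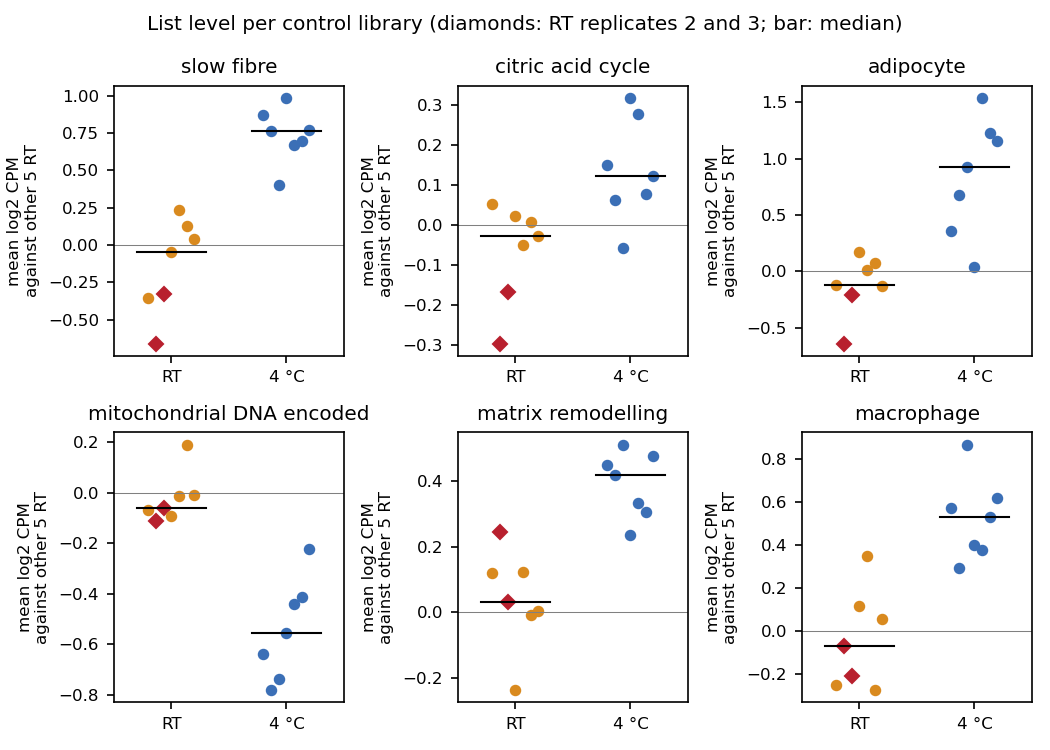
Level of 6 gene lists per control library, as the mean log2 CPM of the tested members minus their mean over the RT libraries other than replicates 2 and 3 (red diamonds); bars are medians. Replicates 2 and 3 average below the other 5 RT libraries for slow-fibre (-0.49), citric acid cycle (-0.23) and adipocyte (-0.42) genes, and lie among or near them for the mitochondrial DNA-encoded and macrophage genes. For matrix remodelling they average 0.14, above the other 5 (-0.24 to 0.12) and on the side of the cold libraries (0.24 to 0.51).

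Leaving out room-temperature replicates 2 and 3 lowered the number of calls and left the directions as they were. It took the calls from 2399 to 1324, and 30 genes were called only then, 4 of which were not among the genes tested with all libraries. With knockout room-temperature columns KO8 and KO10, described below, left out as well, 2010 genes were called. In control libraries alone the calls went from 2381 to 1518. Counts without replicates 2 and 3, here and for the lists, thus also depend on the knockout libraries that share the spread and on the smaller room-temperature group. Leaving out 1 room-temperature library at a time gave 1806 calls without replicate 2, 1936 without replicate 6, 1949 without replicate 3, 2197 without replicate 5, 2326 without replicate 7, 2454 without replicate 1 and 2727 without replicate 4. Among the genes called with all libraries the median ratio of the change without replicates 2 and 3 to the change with them was 0.896. The median log2 change went from 0.77 to 0.67 for the genes that rose and from -0.49 to -0.45 for those that fell. Nr4a3 was the only called gene whose change shrank by more than 0.5 on the log2 scale. Other genes that moved far towards 0 were Txn1, the redox protein thioredoxin (1.79 ± 0.45, or 1.43 without them), Fabp2, the fatty acid carrier of gut epithelium (1.49 ± 0.45, or 1.14, adjusted p = 0.089), and Cyr61 (2.77 ± 0.66, or 2.39). Txn1 has near-identical copies.

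**Figure D4:**
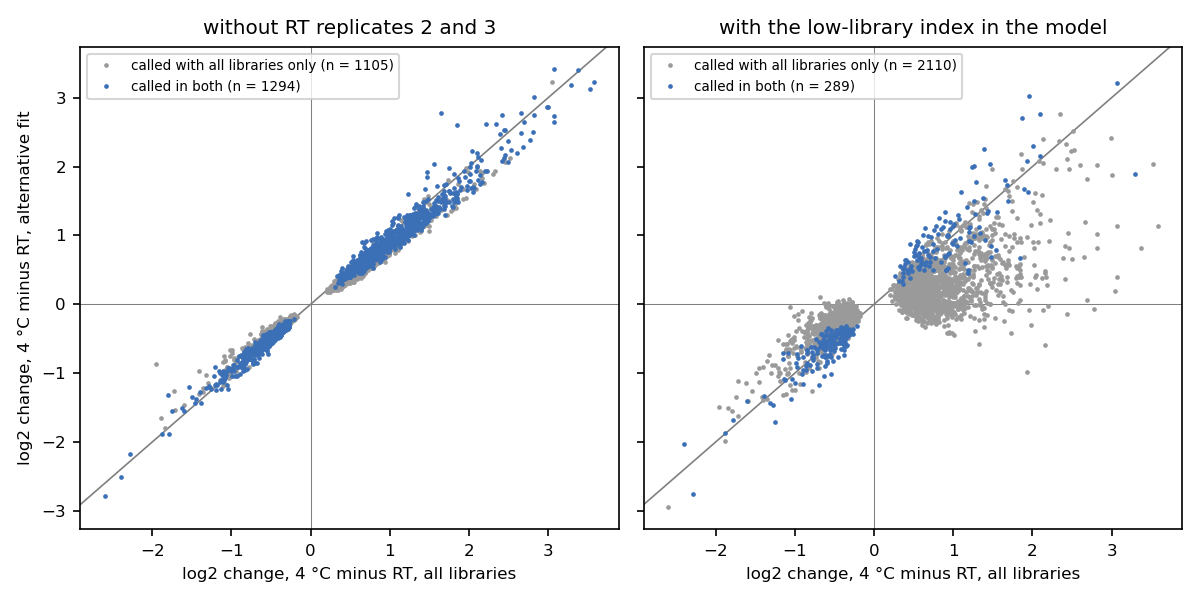
Log2 change of the 2399 called genes in 2 alternative fits (y axis) against the fit with all libraries (x axis); each point is a gene, blue where called in both, and the diagonal marks equal change. Without RT replicates 2 and 3 (left) the points follow the diagonal, with 1294 called in both; with the low-library index in the model (right) many genes that rose lie nearer 0, index genes included, with 289 called in both.

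The programs shifted little in size. Over 58 lists the median log2 change moved by a median of 0.04 and by at most 0.15 (slow fibre), and 2 medians changed sign, both within 0.04 of 0 (mitochondrial biogenesis and dynamics, and creatine and adenylate phosphates). Replicates 2 and 3 averaged outside the range of the other 5 room-temperature libraries for 20 of the 58 lists. For 15 of them they lay on the opposite side of 0, the mean of those 5, from the mean of the cold libraries. The average over all genes tested did the same. Replicates 2 and 3 averaged -0.07 there, below the other 5 (-0.04 to 0.06), and the cold mean was 0.07. A small shift of this kind is therefore not particular to a list. Beside slow fibre, citric acid cycle and adipocyte the 15 included both oxidative phosphorylation lists, amino acid catabolism, cytosolic ribosomal proteins and smooth muscle. The cold mean can be near 0. It was 0.02 for both oxidative phosphorylation lists and 0.03 for cytosolic ribosomal proteins, whose cold libraries lay on both sides of 0. Over all genes tested, rising calls went from 1439 (12.4%) to 779 (6.52%) without replicates 2 and 3. They went from 8 to 3 for immediate-early genes, from 6 to 1 for the proteasome and from 7 to 2 for cytosolic ribosomal proteins. For the citric acid cycle they went from 10 to 5, near the loss over all genes. Matrix remodelling (10 and 10 higher), mitochondrial DNA-encoded (9 and 9 lower), slow fibre (11 and 11 higher) and the antioxidant list (7 and 7 higher) lost none.

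Replicates 2 and 3 were the ends of a wider difference. The low-library index is the mean log2 CPM of 47 genes that were far below their usual level in 1 knockout library at room temperature (column KO10), measured against the other knockout room-temperature columns, so that no control library took part in choosing them. It was 3.49 in room-temperature replicate 2, 4.18 in replicate 3 and 4.42 to 5.49 in the other 5, against 5.99 to 6.34 in the 7 cold libraries. The groups did not overlap with all libraries (exact permutation p = 0.000583, adjusted p = 0.000777) or without replicates 2 and 3 (exact permutation p = 0.00253, adjusted p = 0.00337), in both cases the smallest p that the design allows. In the knockout room-temperature group column KO10 was at 3.52, column KO8 at 4.13 and the other 7 at 5.83 to 6.43, and the 9 knockout cold libraries were at 5.79 to 6.54. All 7 control room-temperature libraries lay under these 7 knockout room-temperature libraries, which served as the high side when the genes were chosen. Of the 47 index genes 41 were called higher in cold control muscle (median 1.34), and 31 without replicates 2 and 3 (median 1.13). In knockout muscle without columns KO8 and KO10, 0 of the 47 were called by edgeR's test (median 0.03), and 1 had an unadjusted p under 0.05. The room-temperature side of that contrast is the columns used as the high side, so it is no independent measure for these 47 genes.

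**Figure D5:**
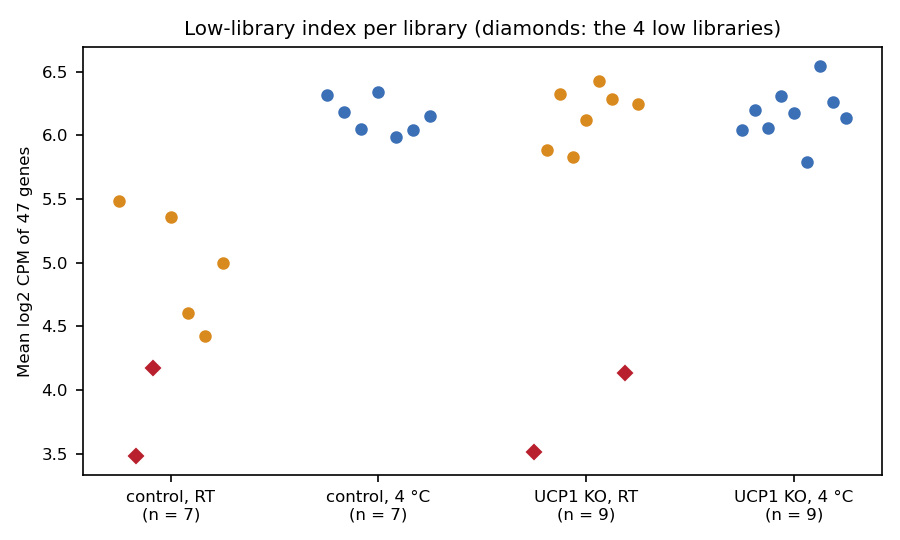
Mean log2 CPM of the 47 index genes per library in the 4 groups; each point is a library, and red diamonds mark control RT replicates 2 and 3 and knockout columns KO10 and KO8. All 7 control RT libraries (3.49 to 5.49) lie below the 7 control cold libraries (5.99 to 6.34).

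With the index as a covariate, 162 genes rose and 219 fell (1.4% and 1.89%, or 3.29% in all), 289 of them called in the same direction as before. Since the index separates the control groups without overlap, this model cannot tell a rise with cold from a rise with the index. An index gene is also adjusted for itself, so covariate values are given here for genes outside the index. Outside it, the genes that rose shrank to a median log2 change of 0.32 and those that fell to -0.32. Called with all libraries, without replicates 2 and 3 and with the covariate were 268 genes, 118 higher and 150 lower, 0 of them index genes. They include Chrnd (log2 1.34 with the covariate), Tmem252 (1.32), Gpx1 (0.89), Ucp2 (1.35), Hspb7 (1.24), Rbm3 (0.72), Bgn (1.12), Lyz2 (0.87), Dbp (1.62), Ciart (3.21), Sln (1.90), Fos (-1.88), Tfrc (-1.37), Ache (-0.85), Xkr8 (-1.10) and Mt-nd5 (-0.77). Among the named genes outside the index, the change of Manba, a lysosomal mannosidase, went to near 0 (-0.02, against 2.20 ± 0.50). So did those of Arrdc4 (-0.08, against 0.77 ± 0.24) and Acvr1b (0.07, against 0.62 ± 0.17), which the rule for named genes also took. The change shrank but kept its sign, among others, for Lrp4 (0.12, against 0.85 ± 0.22) and for Etfa, the electron carrier of fat oxidation (0.42, against 1.25 ± 0.23). The same held for F3 (1.01, against 2.82 ± 0.51) and Hbb (1.14, against 3.07 ± 0.60), whose calls ended. Cyr61, Cox7c, Slc25a42, Sdhd, Mpc2, Ndufb6, Bnip3 and Txn1 are index genes, and so is Aldh6a1, given above with amino acid breakdown.

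By program, the covariate left 10 of 12 mitochondrial DNA-encoded genes lower, 5 of 17 clock genes higher, 4 of 35 matrix remodelling genes higher and 2 of 16 macrophage markers higher. None of these lists, nor the slow-fibre and fat oxidation lists, holds an index gene. It left 0 rising calls in the fat oxidation list and 1 in the slow-fibre list. Outside the index genes, 0 rising calls were left in the citric acid cycle list (which holds Mpc2 and Sdhd), the immediate-early list (Nr4a1) and the YAP and SRF list (Cyr61). The median was 0.57 for slow fibre and 0.49 for macrophage markers, and for the citric acid cycle without its index genes it went from 0.12 to -0.12.

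The knockout rats give a response with other room-temperature libraries. Of the 2399 genes called in control muscle, 579 (24.1%) were called in the same direction in knockout muscle without columns KO8 and KO10, where 11.1% of all genes were called; outside the index the share was 24.6% of 2358. Of the 268 genes called under all 3 control fits, 181 (67.5%) were. These shares are no independent measure, since every fit estimated the spread of a gene over control and knockout libraries together. The effect of the covariate was also estimated over both genotypes. In that knockout contrast Chrnd changed by 1.53, Sln by 2.73, Gpx1 by 1.04, Ucp2 by 1.45 and Lyz2 by 1.07. Manba was at -0.02 (adjusted p = 0.984), Etfa at 0.17 (adjusted p = 0.59), F3 at 0.37 (adjusted p = 0.564) and Hbb at 0.62 (adjusted p = 0.45). The test of the difference between the genotypes' responses called 3 genes with all libraries (0.0259% of genes tested) and 288 without the 4 libraries of lowest index (2.42% of genes tested), 253 of them (2.13%) with a lower change in knockout muscle. The 288 include the index genes Ndufb6, Mpc2, Cox7c and Bnip3. The room-temperature libraries left had an index of 4.42 to 5.49 in control and 5.83 to 6.43 in knockout muscle, so genotype and index cannot be told apart here.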

How the data were processed

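Total RNA of gastrocnemius muscle was prepared with Trizol, 500 ng per sample entered QuantSeq libraries, and 50 bp forward reads were made, per the labels' protocols. Raw counts for 12901 Ensembl genes, as whole numbers, were deposited by the authors, with a table of signal in which, per the values, each deposited count is divided by 1 size factor per library (0.523 to 2.06); the counts were analysed here. R 3.4.3, DESeq2 1.18.1 and build Rnor_6.0 are named in the submitters' processing notes; which aligner and counting tool were used is not given in the sources at hand. All deposited counts are even, so counts divided by 2 were tried as an alternative. Totals of the 32 libraries ran from 7275508 to 25846976 counts, at which genes of a few CPM carry counting error that matters.

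Genes were filtered with filterByExpr (minimum count 10, 1307 genes left out), scaled by TMM and fitted with edgeR 4.0.16 (robust quasi-likelihood, 1 mean per group, all 32 libraries, R 4.3.3); contrasts were adjusted by the Benjamini-Hochberg method. SE is the absolute log2 change over the square root of F. Log2 CPM for the index and list levels used a prior count of 2. The low-library index took genes of at least 20 CPM in the other knockout room-temperature columns that lay at least 2 log2 units lower in column KO10. Library measures were compared by two-sided exact permutation tests (scipy). Alternatives were RLE factors, no filter, DESeq2 1.42.0, control libraries alone, a replicate block, sets of libraries left out, the index as a covariate and each control library left out in turn.

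The comparison, the 58 lists and the rule for named genes were chosen with earlier results of these data known, so lists have counts and medians and no test. The rule took genes called with and without room-temperature replicates 2 and 3 with at least 5 CPM (the 8 largest changes and 8 smallest p in each direction), the 6 that moved most towards 0, the 3 smallest p of each list, and Sln, Pln, Atp2a2, Myh7, Ucp2, Ucp3, Ppargc1a and Pdk4. The text gives a selection; other list members named (such as Per2, Tef, Lox or Hibadh) were chosen after their values were seen. The knockout room-temperature columns are numbered as the titles number them, while the descriptions number the samples differently, so they were used as a group. Myh2, Myh4, Atp2a1 and Ucp1 itself were not analysed here.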

Additional observations from a re-analysis of the deposited data

Results flagged for a closer look

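Of 238 groups of 7 libraries (119 named genes at each temperature) 10 had 1 library whose gap to the next, as a share of the group's range on the log2 scale, was over Dixon's 95% limit; chance gives about 1 in 20. In the cold group these were Hbb in replicate 2 (0.703, highest), Ucp3 in replicate 4 (0.585, highest), Zfp36 in replicate 3 (0.705, highest), Slc16a3 in replicate 3 (0.624, lowest), Tagln in replicate 6 (0.591, lowest) and S100a9 in replicate 5 (0.651, lowest). At room temperature they were Tagln (0.605), Psmb9 (0.703) and Bmp4 (0.628), each lowest in replicate 2, and Alas2 in replicate 1 (0.593, highest).

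The interaction test with all libraries called 3 genes. Klhl38, a muscle protein, fell in control muscle (log2 -0.41) and rose in knockout muscle (0.42), a difference of 0.82 (adjusted p = 0.0479). Asah2, a neutral ceramidase, differed by -1.28 (adjusted p = 0.0479) and LOC100360316 by -1.34 (adjusted p = 0.0441), both with a rise in control muscle. In knockout muscle these 2 were not called (-0.25, adjusted p = 0.348 by edgeR's test, and 0.06, adjusted p = 0.84). All 3 were also called without the 4 libraries of lowest index, a fit to the same data. Genotype and index cannot be told apart in that fit, as said above.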

How the results depend on the processing

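The counts of 2399 called, 1439 higher and 960 lower genes moved by over 1.5 times in 3 fits. Without room-temperature replicates 2 and 3 they were 1324, 779 and 545. In control libraries alone without them, an alternative chosen after seeing the data, they were 1518, 927 and 591. With the low-library index as a covariate they were 381, 162 and 219. Leaving out 1 control library at a time gave 1806 to 2727 called, 1073 to 1568 higher and 733 to 1159 lower genes. The other fits stayed within 1.5 times, from 2010 calls without the 4 libraries of lowest index to 2692 with DESeq2. The interaction count went from 3 to 288 without those 4 libraries, also chosen after seeing the data. The replicate numbers did not pair the samples (correlations of same-numbered deviations -0.22 to 0.19, and 1 of 7 numbers correlated best with its own); the replicate block gave 2182 calls, 1240 higher and 942 lower. The fits were compared for 119 named genes, a selection of the 173 that the rule took. Of these 119, 8 are index genes, which the covariate adjusts for themselves (Aldh6a1, also an index gene, is not among the 119). Among the 119 the covariate reversed Cyr61 (-0.073) and Cox7c (-0.019), both index genes, and Manba (-0.021). It ended the calls of 59 others, 6 of them index genes, and leaving out replicates 2 and 3 ended those of 5. The cause of these changes was not tested.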
